A study of Arabidopsis thaliana with 48 samples.

Results

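The 565 m6A regions described here lie outside every annotated gene on their own strand. Peaks of all 12 m6A libraries were merged per strand where they overlapped by at least 1 bp, which gave 17699 regions, 15111 of them held by at least 2 libraries. Of these 15111, the 565 (3.74%) that touched no same-strand gene span, from start to end, of the 27655 genes in the authors' count tables are the regions outside gene spans, and the other 14546 are called in-gene regions. The regions were thus chosen by their peak calls in these libraries, so which groups hold a region is given as a description, without a test.

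The study followed rosette leaves of Arabidopsis thaliana in 4 groups of 3 libraries per assay: mta in drought, Col-0 wild type (WT) in drought, mta under regular watering (control) and WT in control. The mta line is a post-embryonic mutant of MTA, written mta ABI3:MTA, in which MTA is driven by the ABI3 promoter that is active in the embryo. Drought means 12 days without water. The m6A libraries came from fragmented poly(A) RNA bound by an antibody, and the mRNA libraries from the 10% of the same fragmented RNA kept back before it. Polysomal RNA and uncapped RNA were also sequenced, and those libraries were not used here. The labels do not state if a group's 3 libraries are separate plants, and p-values then measure only a spread that may be technical.

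N6-methyladenosine (m6A) is the most common internal mark of plant mRNA. A writer complex with MTA as its catalytic subunit places it on nascent poly(A) transcripts, mostly near the stop codon and in the 3′ untranslated region, and reader proteins bind it and affect where transcripts end and how long they last. A peak outside a gene span can therefore belong to RNA that runs on past an annotated end, to an antisense or other noncoding RNA, or to a transcript that the annotation lacks.

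The m6A libraries held 7746 to 12228 peaks each, and their sequencing depth is unknown. The mRNA libraries held 1504013 to 5503037 gene counts. The third WT control library was the smallest mRNA library, and its plastid genes took 11.7% of the counts, where the other 11 libraries had 1.93% to 4.36%. MTA mRNA stood at 10.6, 8.26 and 9.79 CPM (counts scaled to the TMM-normalised library size) in mta drought, 26, 25.3 and 18.9 CPM in WT drought, 9.75, 6.97 and 7.4 CPM in mta control, and 17.7, 18.2 and 18.9 CPM in WT control, so each mta library was below each WT library. The leaf transcript CAB1 stood between 4579 and 26234 CPM and the seed transcripts SESA1 and CRA1 at 0.529 CPM or less. The root transcript PYK10 reached 198 CPM, and the floral transcripts AG and AP3 reached 1.88 and 3.24 CPM. In leaf tissue, fewer cells of a type and less RNA per cell cannot be told apart.

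Regions outside gene spans most often lay opposite a gene, and many others fell on annotated noncoding RNAs or pseudogenes. Of the 565, 259 (45.8%) overlapped a gene of the other strand, 234 of them with their whole width, and these lay antisense to 240 genes. Another overlapping set of 111 (19.6%) lay on a same-strand noncoding RNA of the authors' noncoding table. In 85 cases the region began within 500 bp past the end of a same-strand gene, and in 41 it lay within 500 bp before a gene start. A further overlapping set of 191 (33.8%) lay on loci that RefSeq lists and the count tables lack. These kinds overlap, with 59 regions both antisense and on a noncoding RNA, and 41 regions belonged to none of them. The set held 272 regions of the plus strand and 293 of the minus strand, and 1 region each of the plastid and the mitochondrial genome.

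Most of these regions were far from the end of the gene ahead of them. The distance from the nearest upstream same-strand gene end to the region had a median of 4188 bp, with quartiles at 1213 and 9865 bp. Only 18 regions began within 50 bp of such an end, 43 within 200 bp and 129 within 1000 bp. At the border of the rule, 4 regions had a same-strand gene within 10 bp (the nearest at 4 bp), and 4 in-gene regions overlapped their gene by at most 10 bp. The regions were narrower than in-gene regions, with a median width of 170 bp against 214 bp.

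Regions outside gene spans were held by fewer libraries than in-gene regions. The median was 4 libraries against 9 for in-gene regions, 40 (7.08%) were held by all 12 libraries against 4590 (31.6%) in-gene regions, and 141 (25.0%) by only 2 libraries against 1421 (9.77%). The fold enrichment at the summit, which is the authors' own value, did not differ past the threshold. Within a library, the log2 ratio of the median fold of peaks outside to that of peaks inside gene spans averaged 0.03 ± 0.08 (SD, n = 12), a ratio of 1.02 (two-sided exact permutation test, p = 0.149). It lay between 0.01 and 0.16 in the 6 mta libraries, all above 0, and between -0.06 and 0.04 in the 6 WT libraries, of which 1 was above 0 and 1 at 0, and the difference between the genotypes was not tested. With only those peaks counted as outside whose summit lay in no gene span the mean was 0.06 (exact permutation test, p = 0.0234).

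**Figure D1:**
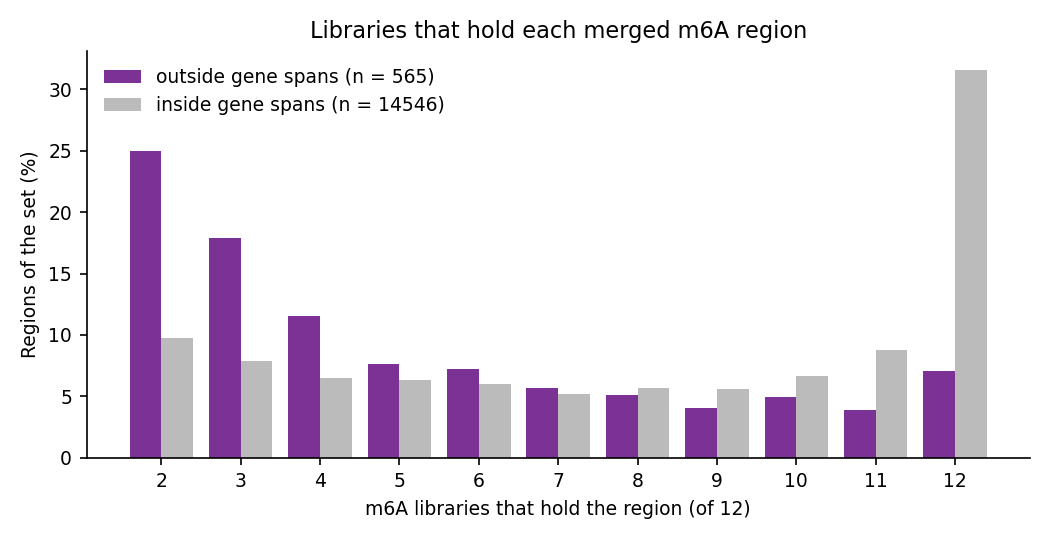
Share of regions (%, vertical axis) held by each number of the 12 m6A libraries (horizontal axis), for the 565 regions outside gene spans (purple) and the 14546 in-gene regions (grey). The purple bars are highest at 2 libraries (25.0%), and the grey bars at 12 libraries (31.6%).

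The most widely held regions were of several kinds. The region at chr1:21833138-21833483 (plus strand, TAIR10) began 120 bp past AT1G59218 and lay on the pseudogene AT1G59265. Its fold enrichment was 13, 12.7 and 12 in mta drought, 13.8, 12.6 and 14.1 in WT drought, 11.9, 12.6 and 11.6 in mta control, and 10.5, 8.55 and 13.2 in WT control. All 12 libraries held it, with folds that overlapped between the groups. AT1G59218 itself had at most 0.266 CPM, and as near-identical copies of it exist, its counts are uncertain.

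Antisense regions were among the 12-library set too. On chr2:2026562-2026825 (minus strand), opposite GRP-3, a glycine-rich protein gene, the fold was 11.9, 8.11 and 18 in mta drought, 13, 16.6 and 19.4 in WT drought, 15.2, 16.5 and 16.9 in mta control, and 12.4, 9.88 and 6.64 in WT control. The region at chr1:9602965-9603397 (plus strand) lay opposite IRX9-L, which encodes a glycosyltransferase of xylan synthesis, and began 48 bp past AT1G27595, with folds of 6.08 to 13.5. Another, at chr1:25449738-25450072 (plus strand), lay opposite AT1G67870 with folds of 3.53 to 19.7, and a sense-strand region at the same place was held by 12 libraries as well. A short region of 111 bp at chr5:21873006-21873116 (plus strand) lay opposite AT5G53880.

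Noncoding RNAs and pseudogenes made up the rest of the 10 regions ranked first by libraries and fold. Of these, 3 lay on noncoding RNAs of unknown role, on AT3G29644 (chr3:11499181-11499440, folds of 6.32 to 14.8), AT1G08507 (chr1:23032717-23033004, 5.89 to 14.4) and AT2G45023 (chr2:18570574-18570735, 5.75 to 12.8), each on the minus strand. The region on AT1G08507 also lay 399 bp past the end of AT1G62310, a jumonji-domain protein gene. The remaining pair covered the pseudogenes AT4G08100 (chr4:5081343-5084287, minus strand, 2945 bp) and AT3G61330 (chr3:22696849-22697039, plus strand). A sequence for these regions was not read here, since no genome of the build was used.

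Across groups, WT drought leaves held the most of these regions. The number held was 183, 137 and 259 in the mta drought libraries, 345, 332 and 361 in WT drought, 285, 175 and 317 in mta control, and 243, 245 and 89 in WT control. The means were 193 ± 61.6 in mta drought and 192 ± 89.5 in WT control (SD, n = 3 each), the lowest of the 4. Counting a region as present in a group when at least 2 of its 3 libraries held it, 186 (32.9%) were present in mta drought, 360 (63.7%) in WT drought, 272 (48.1%) in mta control and 204 (36.1%) in WT control. In-gene regions spread less, with 58.1%, 77.2%, 67.6% and 72.0% in the same order. The third WT control library held only 89, and 199 regions (35.2%) were held by both the first and the second WT control library. Presence in all 4 groups was met by 87 regions (15.4%) against 45.6% of in-gene regions.

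WT drought was the highest group for 4 kinds of region and mta control for the others. Regions past a gene end were present in 27.1% of cases in mta drought, 71.8% in WT drought, 37.6% in mta control and 38.8% in WT control. Those on noncoding RNAs gave 34.2% in mta drought, 73.9% in WT drought, 36.0% in mta control and 45.9% in WT control. Antisense regions gave 32.0%, 66.4%, 39.4% and 31.3%, and regions before a gene start 48.8%, 68.3%, 51.2% and 46.3%, in the same order. Regions on RefSeq loci absent from the count tables were instead highest in mta control, with 36.6% in mta drought, 61.8% in WT drought, 63.9% in mta control and 41.4% in WT control. The 41 regions of no kind also peaked in mta control (14.6%, 39.0%, 53.7% and 22.0% in the same order). Differences between the kinds were not tested. The number of peaks called per library was 7746 to 10357 in mta drought, 11641 to 12065 in WT drought, 8374 to 12145 in mta control and 8269 to 12228 in WT control, and its part in these shares was not tested.

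**Figure D2:**
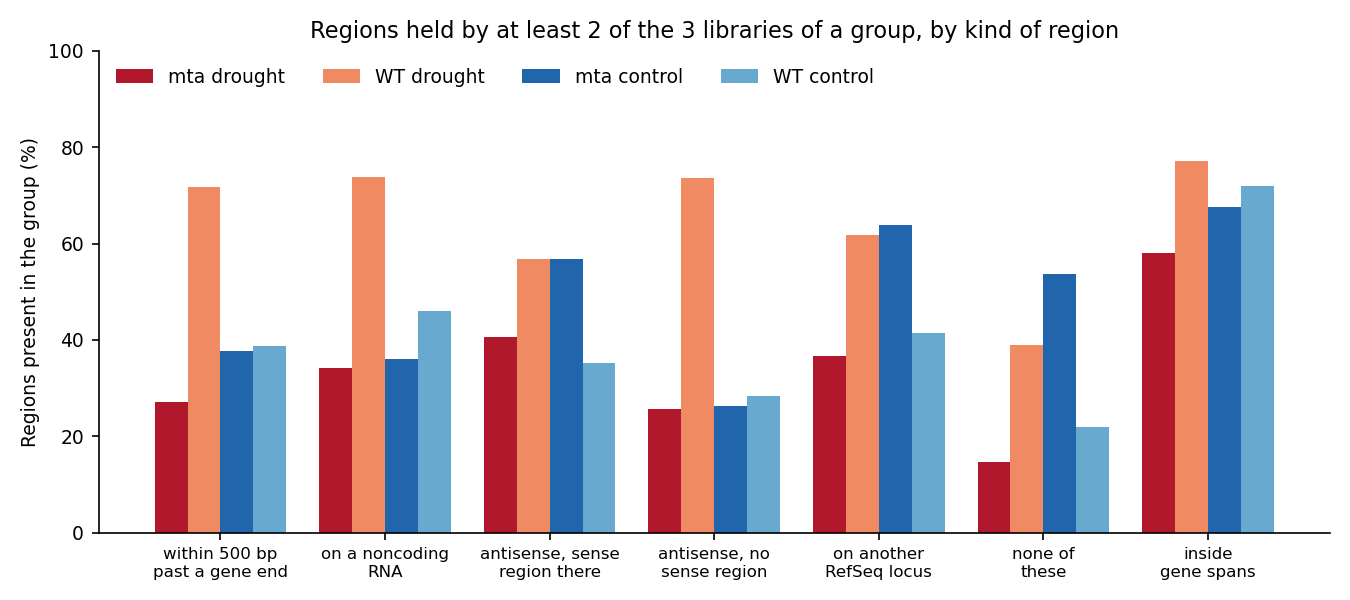
Share of regions (%, vertical axis) held by at least 2 of the 3 libraries of each group, by kind of region outside gene spans and, at the right, for in-gene regions. Groups are mta drought, WT drought, mta control and WT control. Antisense regions are split by whether the gene's own strand carried a region at the same place, and regions before a gene start are not shown. WT drought stands highest for regions past a gene end (71.8%), on noncoding RNAs (73.9%) and antisense without a region on the gene's own strand (73.6%). For antisense regions with one, WT drought and mta control are level (56.8% each). The mta control group stands highest on RefSeq loci absent from the count tables (63.9%) and for regions of none of the kinds (53.7%).

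Some regions were seen in a single group, with at least 2 of its libraries and none of the other 9. These were 5 regions in mta drought, 95 (16.8%) in WT drought, 63 (11.2%) in mta control and 9 (1.59%) in WT control. Among in-gene regions the shares were 0.392% for mta drought, 3.33% for WT drought, 3.32% for mta control and 1.33% for WT control. Of the WT drought regions of this type, 25 lay past a gene end (29.4% of the 85 there), 23 on a noncoding RNA (20.7% of 111) and 45 antisense to a gene with no region on the gene's own strand (30.4% of 148). Of the mta control regions, 34 lay on RefSeq loci absent from the count tables (17.8% of 191) and 11 on none of the kinds (26.8% of 41).

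Shares of peaks per library allow a test, since they count all peaks of a library and not only those in shared regions. The share of peaks outside gene spans was 2.64%, 2.23% and 3.07% in mta drought, 3.51%, 3.38% and 3.56% in WT drought, 3.36%, 2.65% and 3.51% in mta control, and 2.46%, 2.36% and 1.39% in WT control. In drought every mta library was below every WT library, and in control every mta library was above every WT library, also without the third WT control library. Over both regimes mta averaged 2.91% ± 0.487 and WT 2.78% ± 0.862 (SD, n = 6 each), a difference of 0.132 percentage points (two-sided exact permutation test within regimes, adjusted p = 0.77). Drought averaged 3.07% ± 0.533 and control 2.62% ± 0.767 (exact permutation test within genotypes, adjusted p = 0.4725). The mta minus WT difference was -0.84 points in drought and 1.10 points in control, and the difference between these was not tested.

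The make-up of the outside peaks differed between the genotypes. Peaks on a noncoding RNA made up 14.3% ± 2.16 of the outside peaks in mta and 20.2% ± 1.65 in WT (SD, n = 6 each), a difference of -5.84 points (exact permutation test, adjusted p = 0.02, the raw p of 0.005 being the smallest that the 400 arrangements can give). The 6 mta libraries lay between 11.7% and 16.5%, and the 6 WT libraries between 17.4% and 22.5%, without overlap. This share was added after the data had been seen and was adjusted over all 8 shares tested. The difference was -4.06 points within drought and -7.63 points within control. By number, 38, 27 and 52 peaks lay on a noncoding RNA in mta drought and 82, 80 and 88 in WT drought. In control these counts overlapped, at 44, 26 and 60 in mta and 59, 65 and 20 in WT.

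Peaks past a gene end and antisense peaks were also a smaller share of the outside peaks in mta. Past a gene end lay 14.0% ± 1.89 of the outside peaks in mta and 17.9% ± 2.03 in WT, a difference of -3.87 points (exact permutation test, adjusted p = 0.04). It was -2.23 points within drought and -5.51 within control. By number, 41, 24 and 43 peaks lay past a gene end in mta drought and 76, 65 and 73 in WT drought. In control these counts overlapped, at 50, 29 and 53 in mta and 50, 47 and 25 in WT. Leaving out mta drought 2 or 3, WT drought 1 or mta control 1, 2 or 3 brought the adjusted p to 0.05 or 0.06. Antisense to a gene lay 36.8% ± 3.03 of the outside peaks in mta and 41.3% ± 5.53 in WT, a difference of -4.60 points (exact permutation test, adjusted p = 0.04), with -6.38 points within drought and -2.81 within control. That call was lost without any library other than mta drought 1 and WT control 3, with an adjusted p between 0.05 and 0.08. With peaks of a −log10 q of at least 5 only, the adjusted p was 0.135 for the share past a gene end and 0.17 for the antisense share. Antisense peaks numbered 92, 65 and 129 in mta drought and 186, 179 and 201 in WT drought. In control their counts overlapped, at 130, 74 and 146 in mta and 119, 105 and 38 in WT. All outside peaks in control numbered 372, 222 and 426 in mta and 286, 289 and 115 in WT.

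Drought went with a larger antisense share of the outside peaks in both genotypes. It averaged 42.5% ± 3.68 in drought and 35.6% ± 3.18 in control (SD, n = 6 each), a difference of 6.92 points (exact permutation test, adjusted p = 0.03, with the raw p at its smallest possible value). In mta the libraries stood at 39.8%, 37.6% and 40.6% in drought, against 34.9%, 33.3% and 34.3% in control. In WT they stood at 44.9%, 45.4% and 46.7% in drought, against 41.6%, 36.3% and 33.0% in control. By this share the drought libraries were above the control libraries of their genotype in every case, and the adjusted p was 0.05 without the first WT drought library. The number of antisense peaks in mta was not higher in drought, at 92, 65 and 129 against 130, 74 and 146 in control. All outside peaks in mta numbered 231, 173 and 318 in drought and 372, 222 and 426 in control. In WT the antisense peaks numbered 186, 179 and 201 in drought against 119, 105 and 38 in control. For the share past a gene end drought averaged 16.2% ± 2.02 and control 15.7% ± 3.54 (adjusted p = 0.768, exact permutation test), and for the share on noncoding RNAs 18.2% ± 2.25 and 16.4% ± 4.57 (adjusted p = 0.184, exact permutation test).

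**Figure D3:**
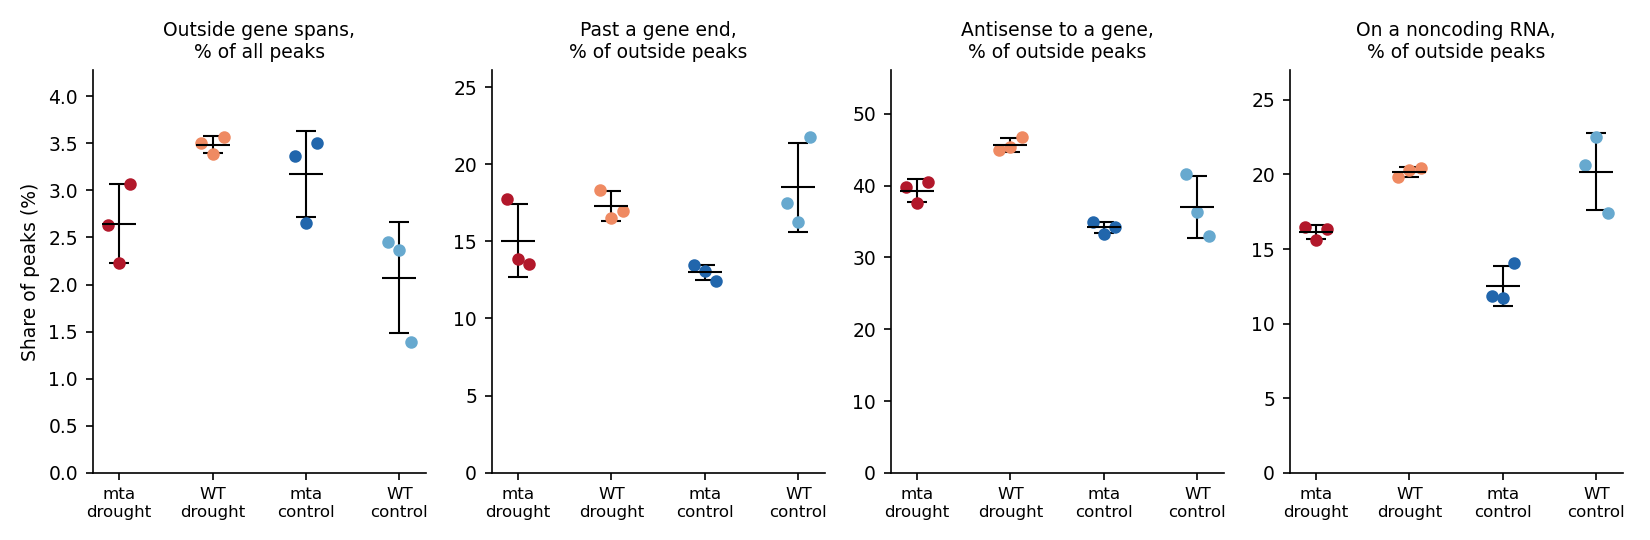
Share of peaks (%, vertical axes) of each m6A library by group, with the group mean and SD (bars, n = 3), for peaks outside gene spans among all peaks and for peaks past a gene end, antisense to a gene or on a noncoding RNA among outside peaks. In the right panel the mta libraries (11.7% to 16.5%) lie below all WT libraries (17.4% to 22.5%).

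The regions just past a gene end are the ones that RNA reaching beyond an annotated end could carry. These 85 regions followed 83 genes, began a median of 184 bp past the gene end (quartiles 65 and 338 bp), and 38 of them also lay antisense to another gene, 12 on a noncoding RNA and 14 on another RefSeq locus. For 23 of the 85 an in-gene region lay within 500 bp as well. The genes ahead ranked at a median percentile of 57.4 of mRNA per kb of gene span among all 27655 genes, against 71.8 for the 12234 genes with an in-gene region.

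The region past UBC7 was among those held by every library. That region, at chr5:23919601-23919854 (minus strand), began 14 bp past UBC7, a ubiquitin-conjugating enzyme gene, and was held by 12 libraries with folds of 2.71 to 8.79. UBC7 mRNA stood at 25.8, 27.4 and 27.2 CPM in mta drought, 34.2, 31 and 28.4 in WT drought, 9.14, 7.51 and 10.2 in mta control, and 14.6, 14.8 and 10.5 in WT control. The drought libraries were above the control libraries in both genotypes, with a log2 fold change of 1.15 ± 0.15 in WT (edgeR's quasi-likelihood test, adjusted p = 5.4e-07), while all 12 m6A libraries held the region. Behind UPL1, a ubiquitin ligase gene, a region 213 bp past the end (chr1:20879499-20879687, minus strand) was held by 10 libraries.

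Regions past 2 chaperone genes differed in how many libraries held them. A region 314 bp past Hsp70-15 (chr1:30058681-30058988, minus strand) was held by 11 libraries. Hsp70-15 mRNA stood at 120, 123 and 127 CPM in mta drought, 256, 244 and 250 in WT drought, 196, 155 and 164 in mta control, and 148, 131 and 158 in WT control. It was lower in mta than in WT in drought, by a log2 fold change of -1.02 ± 0.10 (edgeR's quasi-likelihood test, adjusted p = 2.1e-08). Past HSP90.1 a region at 92 bp (chr5:21355239-21355357, plus strand) was held by 2 WT drought libraries only. HSP90.1 mRNA was 61.9, 53.3 and 56.3 CPM in mta drought, 32.6, 35.7 and 30.9 in WT drought, 31.1, 23.3 and 24.3 in mta control, and 7.41, 6.68 and 8.4 in WT control. The group with the region was thus not the group with the most HSP90.1 mRNA.

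Regions past AT5G08760 and AT4G00955 were held by mta libraries. A region 446 bp past AT5G08760 (chr5:2856063-2856214, plus strand), which also lay opposite AT5G08770, was held by 3 mta drought and 2 mta control libraries and by no WT library. AT5G08760 mRNA stood at 42.7, 36 and 42.8 CPM in mta drought, 1.6, 2.47 and 1.13 in WT drought, 62.5, 70 and 61.7 in mta control, and 60, 57.9 and 57.4 in WT control. The WT drought libraries alone were low, and the mta minus WT difference of the drought effects was 4.42 ± 0.24 on the log2 scale (edgeR's quasi-likelihood test, adjusted p = 7.3e-12). The region 137 bp past AT4G00955 (chr4:413947-414166, plus strand) was held by 1 mta drought and 2 mta control libraries. Its gene ahead stood at 20.2, 18.9 and 17.9 CPM in mta drought against 0.912, 1.1 and 2.03 CPM in WT drought. In control AT4G00955 mRNA was higher in mta by a log2 fold change of 0.78 ± 0.22 (edgeR's quasi-likelihood test, adjusted p = 0.0154). That call was lost with DESeq2 and without WT control 1, WT control 2 or mta control 3.

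The reverse pattern was seen past HAC4, a histone acetyltransferase gene. Its region at 34 bp (chr1:20932132-20932417, minus strand) was held by 3 WT drought libraries and 1 WT control library. HAC4 mRNA stood at 9.1, 8.53 and 4.16 CPM in mta drought, 24.4, 19.5 and 21.4 in WT drought, 21.3, 22 and 15 in mta control, and 14.6, 17.2 and 16.8 in WT control. The mta drought libraries were below the other 9, with a log2 fold change of -1.59 ± 0.22 for mta against WT in drought (edgeR's quasi-likelihood test, adjusted p = 3.4e-06). A region 364 bp past EIN2, the central transducer of ethylene signalling, was held by 2 WT drought libraries, and a region 432 bp past AT4G31405 by the 3 WT drought libraries.

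A region present in all groups sat behind a gene that differed strongly. The region 454 bp past AT1G02360, a chitinase family gene (chr1:471193-471429, minus strand), was held by 12 libraries and lies on a misc_RNA locus of RefSeq, AT1G04107. AT1G02360 mRNA stood at 11.4, 12.3 and 9.54 CPM in mta drought, 0.912, 2.2 and 0.902 in WT drought, 4.06, 7.78 and 7.93 in mta control, and 12.8, 14.4 and 12.6 in WT control. The difference of the drought effects was 4.10 ± 0.43 (edgeR's quasi-likelihood test, adjusted p = 1.3e-07). Behind AT2G38240, which encodes an oxygenase that inactivates jasmonate, a region at 238 bp was held by 7 libraries and also lay opposite PDX1.1, a gene of vitamin B6 synthesis.

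More of the genes ahead of regions rose than fell in WT drought, while in mta the shares were close to those of all genes. Of the 69 of 83 that passed the filter on low counts, 27 (39.1%) rose and 21 (30.4%) fell in mta, with a median log2 fold change of 0.28, where 35.1% of all 17666 genes tested rose and 35.3% fell. In WT 33 (47.8%) rose and 14 (20.3%) fell with a median of 0.42, against 32.6% and 35.3% of all genes. Of the 35 tested genes within 200 bp of their region, 12 rose and 12 fell in mta (median 0.22), and 18 rose and 8 fell in WT (median 0.43). GRF7, which encodes a 14-3-3 protein and has a region 347 bp past its end, rose by 1.79 ± 0.10 in mta and by 1.43 ± 0.10 in WT. Against WT in drought, 10 were higher and 21 lower in mta (median -0.16), where the background was 26.6% and 26.1%. In control 3 were higher and 5 lower in mta, at a background of 8.5% and 9.28%. Without the first WT control library these were 2 and 3. The difference of the drought effects passed upward for 7 and downward for 17 of the 69 (median -0.17), against 19.6% and 18% of all genes. All calls are from edgeR's quasi-likelihood test, and the median over all genes lay between -0.01 and 0.03 in the 5 comparisons. The genes were chosen through called peaks. Of the 85 regions past a gene end, 71.8% were present in WT drought and 25 were seen in that group alone. The choice itself may thus favour genes with more RNA in WT drought, and its part in these counts was not tested.

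Processing of the 3′ end of mRNA takes place at gene ends, and a list of 22 genes linked to it was followed. In mta 2 (9.09%) rose and 11 (50.0%) fell in drought against control, with a median log2 fold change of -0.40, where 35.1% of all genes rose and 35.3% fell. In WT 7 (31.8%) rose, close to the 32.6% of all genes, and 3 (13.6%) fell, against 35.3% (median 0.15). Within drought 1 (4.55%) was higher and 14 (63.6%) were lower in mta than in WT (median -0.53), against 26.6% and 26.1% of all genes. In control 1 (PAPS2, a poly(A) polymerase, 0.34 ± 0.11) was higher and 0 lower, against 8.5% and 9.28%. The control comparison gave 3 higher and 1 lower at an unadjusted p under 0.05, and 0 of either with DESeq2. It gave 0 of either without WT control 1 or 2, WT drought 2 or 3, or mta control 1 or 2, and PAPS2 also missed the threshold without mta control 3. FIP1[V], a subunit of the cleavage and polyadenylation machinery, stood at 82.7, 79.9 and 96.4 CPM in mta drought, 240, 231 and 234 in WT drought, 84.5, 70 and 64.9 in mta control, and 82.2, 75.7 and 77 in WT control. The WT drought libraries stood alone, and the difference of the drought effects was -1.34 ± 0.15 (edgeR's quasi-likelihood test, adjusted p = 5.2e-07). Over the list that difference passed downward for 9 genes and upward for 0 (0 upward and 11 downward unadjusted, 0 and 7 with DESeq2), against 18% and 19.6% of all genes. With the dependence of counts on gene span (the span trend) taken out library by library, the list had 1 upward and 3 downward for that difference, 8 risen and 5 fallen for drought in mta, and 5 higher and 7 lower in mta than in WT in drought.

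The noncoding RNAs that hold a region ranked high among all those of the noncoding table, most of which had too few counts to be tested. The 111 regions lay on 101 of the 5178 RNAs of the noncoding table. By RefSeq biotype the 101 were 72 lncRNAs, 23 ncRNAs, 5 snRNAs and 1 miRNA precursor. Their mRNA level per kb of span ranked at a median percentile of 93.3 among all 5178, and 78 of them at 90 or above. A peak can be called only where the RNA is present, so holding a region itself selects for level. Of all noncoding RNAs 343 passed the filter on low counts, and of these 101, 86 did. The libraries were made from poly(A) RNA, so only polyadenylated noncoding transcripts are sampled well. The miRNA precursor entry was MIR841a, whose region of 2068 bp lay opposite the histone gene HTA4 and was held by 12 libraries.

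Of these noncoding RNAs more rose than fell in drought, as over all noncoding RNAs tested. Of the 86 that could be tested, 33 rose and 12 fell in mta (median log2 fold change 0.39), where 34.1% of the 343 noncoding RNAs tested rose and 14.3% fell. In WT 35 rose and 9 fell (median 0.52), against 29.2% and 12.8%. The medians over all noncoding RNAs were 0.25 in mta and 0.37 in WT. Between genotypes, 10 were higher and 15 lower in mta in drought (6 and 7 with DESeq2), where the background was 19% and 10.2%, and 1 was higher and 0 lower in mta in control, against 6.71% and 1.46%. In control these were 14 and 2 at an unadjusted p under 0.05, 1 and 0 with DESeq2, and 5 and 0 without the third WT control or the first mta control library. Without WT control 2 or mta control 2 they were 2 and 0, and without mta control 3 they were 3 and 0. In drought they were 8 and 8 without mta drought 2 and 4 and 18 with the span trend removed. For the difference of the drought effects 9 passed upward and 10 downward (2 and 6 with DESeq2), at a background of 8.45% and 7%. It was 4 and 7 without WT control 1, 2 and 8 without WT control 2, and 4 and 8 without WT drought 2. With the span trend removed it was 3 and 9.

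Presence on noncoding RNAs did not always follow their level. AT5G24735, the most counted of them, had its region (chr5:8468398-8468507, minus strand) in all 6 WT libraries and in 0 of 6 mta libraries. Its level was 67.3, 81.5 and 71.2 CPM in mta drought, 58.6, 55.2 and 66.1 in WT drought, 29.8, 49.6 and 42.1 in mta control, and 34.5, 45.5 and 28 in WT control. All mta drought libraries were above the WT drought libraries and the control libraries overlapped, with a log2 fold change against WT of 0.29 ± 0.15 in drought and 0.10 ± 0.17 in control (edgeR's quasi-likelihood test, adjusted p = 0.123 and 0.736). The fold of its peaks in WT was 2.3 to 6.27.

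Similar cases were found among the regions of a single genotype. The region on AT1G52347 (chr1:19497489-19497624, plus strand) was held by 6 WT libraries, with folds of 8.28, 10.3 and 7.73 in drought and 5.1, 7.43 and 7.32 in control, and by 0 mta libraries. AT1G52347 stood at 8.85, 7.73 and 8.08 CPM in mta drought, 4.79, 4.12 and 9.02 in WT drought, 3.25, 6.44 and 4.41 in mta control, and 5.24, 7.09 and 1.4 in WT control. The levels of the genotypes overlapped, and mta drought was not the low group. On AT2G32795 (chr2:13910737-13910903, plus strand) the region was held by 1 mta and 5 WT libraries, while the RNA stood at 11.1, 10.7 and 8.08 CPM in mta drought, above the 6.61, 6.87 and 5.64 CPM of WT drought. The opposite was found on AT1G78265 (chr1:29450853-29451250, plus strand), held by 6 mta libraries and 1 WT library, where the RNA did not differ past the threshold between genotypes in drought (-0.15 ± 0.16) or control (0.30 ± 0.20).

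Noncoding RNAs and the genes opposite their regions moved together about as often as apart. Of 54 such pairs, 26 could be tested on both strands, and in mta both members passed for 13 pairs, 7 in the same direction and 6 in opposite ones. In WT both passed for 18, with 10 in the same direction and 8 in opposite ones. AT5G66558, picked after its values were seen, stood at 33.4, 33.8 and 25.2 CPM in mta drought, 27.1, 34.9 and 32.5 in WT drought, 6.9, 7.78 and 7.58 in mta control, and 4.88, 4.86 and 0.7 in WT control. It rose by 2.05 ± 0.20 in mta and by 2.86 ± 0.23 in WT on the log2 scale (edgeR's quasi-likelihood test, adjusted p = 1.6e-08 and 7.8e-10). Its region (chr5:26564098-26564268, minus strand) was held by the 3 WT drought libraries alone. The gene on the other strand, AT5G66560, a member of a phototropic-response family, fell by 2.89 ± 0.20 in mta and by 3.02 ± 0.20 in WT in drought (edgeR's quasi-likelihood test, adjusted p = 3.3e-11 and 6.8e-12).

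Antisense regions split by whether the gene's own strand carried a region at the same place. For 111 of the 259 (42.9%) a shared region of the other strand overlapped the antisense region, and for 148 none did. Of the 306 regions not antisense to a gene 6 (1.96%) had such a partner, and of in-gene regions 684 (4.70%). In the plus-strand peak lists 97.0% of peaks lay on plus-strand genes and 11.1% on minus-strand genes, and the minus-strand lists gave 97.2% and 11.2%, so the strands of the lists are those of the genes. The m6A libraries were strand-specific by protocol, and reads carried over from the other strand were not tested as a source of antisense peaks.

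**Figure D4:**
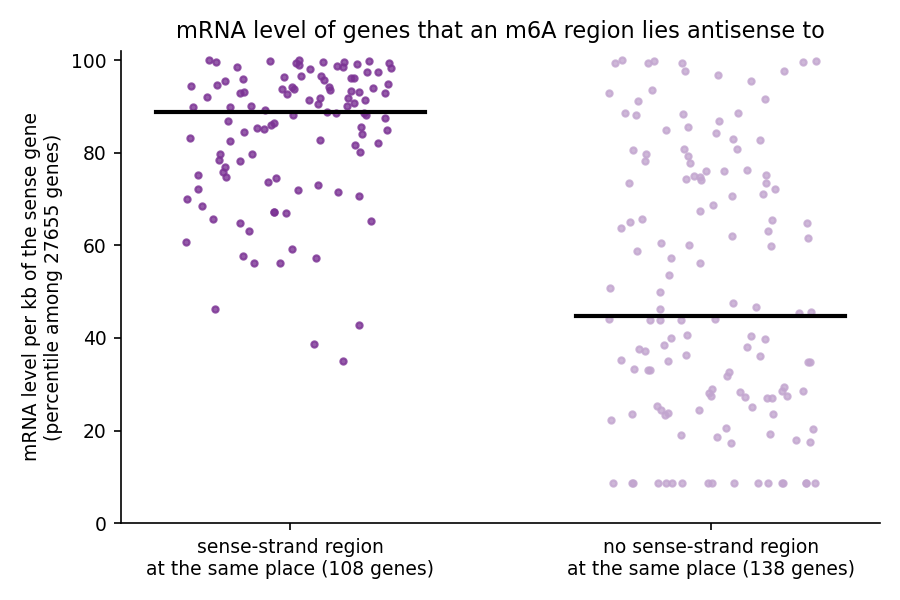
mRNA per kb of gene span of each gene that a region lies antisense to, as a percentile among 27655 genes (vertical axis), for 108 genes with and 138 genes without a sense-strand region at the same place. Points are genes and lines medians, which stand at 88.7 with and at 44.7 without a sense-strand region. A called sense-strand region itself requires RNA of the gene.

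The genes opposite the antisense regions ranked differently by kind. The 108 genes with a sense-strand region at the same place ranked at a median percentile of 88.7 of mRNA per kb, and 50 of them (46.3%) ranked at 90 or above. The 138 genes without one ranked at a median of 44.7, with 15 (10.9%) at 90 or above. A sense-strand peak can be called only where the gene's RNA is present, so the split itself selects for level. Genes with an in-gene region, which share that condition, had a median of 71.8, with 15.8% at 90 or above. Some genes lie opposite regions of both kinds, so the numbers add to more than 240. Within a library, 490 of 1274 antisense peaks (38.5%) had a sense-strand peak of the same library at the same place. In the libraries that lacked the antisense peak of a region, a sense-strand peak was present in 469 of 1834 cases (25.6%).

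Regions with a sense partner were mostly held in the regime where the mRNA of the gene was higher. In mta, 10 of them were held by at least 2 drought libraries and no control library, and the gene had risen in drought for 8 and fallen for 2 (median log2 fold change 1.48). For the 24 held in mta control and not in mta drought, 3 genes had risen and 20 fallen (median -1.41). In WT, the genes of the 26 regions held in drought and not in control had risen for 20 and fallen for 2 (median 1.07). For the 10 held in WT control and not in WT drought, 1 had risen and 6 fallen (median -1.79). In-gene regions of WT went the same way. For those held in WT drought and not in WT control, 479 had risen and 202 fallen of 864 tested. For those held in WT control and not in WT drought, 38 had risen and 537 fallen of 630 tested. Among all genes tested, 35.1% rose and 35.3% fell in mta, and 32.6% and 35.3% in WT. The mRNA libraries are the input of the same precipitations, so the presence of a peak and the mRNA count share their RNA.

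Among regions without a sense partner, the tested genes opposite those held in WT drought and not in WT control had mostly fallen. In mta 11 such regions were held in drought and not in control, and of the 6 genes tested 5 had risen and 1 had not passed the threshold. Of the genes opposite the 15 held in mta control and not in mta drought 8 were tested, of which 5 had risen and 1 had fallen (median 0.41). In WT 62 were held in drought and not in control, and of the 38 opposite a gene that could be tested 6 had risen and 23 had fallen (median -1.19). Of the 4 held in WT control and not in WT drought 3 genes were tested, of which 0 had risen and 1 had fallen. Over all genes tested, 35.1% rose and 35.3% fell in mta, and 32.6% and 35.3% in WT. CLV1, the receptor kinase that limits shoot stem cells, stood at 10.5, 12.6 and 10.4 CPM in WT drought against 96, 81.8 and 100.0 CPM in WT control, with an antisense region in 2 WT drought libraries (chr1:28466702-28466814, plus strand). CaS, a calcium-sensing protein of the chloroplast, stood at 31.5, 30.2 and 37.4 CPM in WT drought against 259, 252 and 253 CPM in WT control, with an antisense region in the 3 WT drought libraries (chr5:7736954-7737074, plus strand). AGP19, an arabinogalactan protein gene, fell by 4.84 ± 0.71 and had its region in the 3 WT drought libraries too. These genes were picked after their values were seen.

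Over all genes opposite a region, similar numbers rose and fell in drought. These counts were added after the data had been seen. Of 240, 188 could be tested. In drought 73 rose and 78 fell in mta (median -0.04) and 69 rose and 83 fell in WT (median -0.15). With both directions counted 80.3% were called in mta and 80.9% in WT, against 70.3% and 67.9% of all genes. Against WT in drought, 56 were higher and 56 lower in mta (29.8% each), where 26.6% and 26.1% of all genes were. In control 29 (15.4%) were higher and 15 (7.98%) lower, against 8.5% and 9.28% of all genes. The difference of the drought effects passed upward for 47 (25.0%) and downward for 51 (27.1%), against 19.6% and 18% of all genes.

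Antisense regions held by at least 5 of the 6 drought libraries and at most 1 control library numbered 13. Of the genes opposite them 9 could be tested. In mta 8 had risen and 0 fallen (median log2 fold change 1.77), where 35.1% of all genes rose and 35.3% fell. In WT 8 had risen and 0 fallen (median 2.54, 7 and 0 with DESeq2), against 32.6% and 35.3% of all genes. These counts by regime or genotype were added after the data had been seen. The region at chr5:13852595-13853395 (plus strand, 801 bp), opposite AT5G35660, had the highest folds, 16.4, 15.7 and 17.9 in mta drought and 20.7, 21.4 and 19.6 in WT drought, and was absent from the 6 control libraries. AT5G35660 mRNA stood at 44.2, 41.8 and 48.2 CPM in mta drought and 170, 153 and 146 CPM in WT drought, and at 0 counts in every control library. Against a floor of 3 counts over the group it was at least 214-fold higher in drought in mta and at least 621-fold higher in WT. Between the drought groups it was lower in mta by a log2 fold change of -1.80 ± 0.11 (edgeR's quasi-likelihood test, adjusted p = 1.7e-10).

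A late embryogenesis abundant protein gene, AT3G17520, had a region held in drought only as well. Its antisense region (chr3:5999636-5999753, plus strand) had folds of 7.58, 6.38 and 6.98 in mta drought and 8.24, 12.1 and 10.9 in WT drought, and no control library held it. The mRNA stood at 552, 663 and 569 CPM in mta drought, 1551, 1768 and 1615 CPM in WT drought, 1.22, 1.07 and 1.06 CPM in mta control, and 0.362, 0 and 0.7 CPM in WT control. In mta it rose by 9.02 ± 0.18 on the log2 scale (edgeR's quasi-likelihood test, adjusted p = 3.1e-20), and the WT ratio from 3 control counts was 6494, with an exact 95% interval of 2222 to 31493 that covers counting error only. A further region lay opposite SDP1-LIKE, a lipase gene, in 5 drought libraries and 1 control library, and SDP1-LIKE mRNA was too low to test, at 0.533 CPM or less in the mta drought libraries, 0.549 or less in WT drought, 0.705 or less in mta control and 1.42 or less in WT control.

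The reverse pattern, at least 5 control libraries and at most 1 drought library, was met by 5 antisense regions. Of the 5 genes opposite them 1 had risen and 4 had fallen in mta, and 0 had risen and 4 had fallen in WT. The shares over all genes were 35.1% risen and 35.3% fallen in mta, and 32.6% and 35.3% in WT. CWLP, a cell wall and plasma membrane linker protein gene, had an antisense region on the noncoding RNA AT3G22121 (chr3:7795578-7796146, plus strand), with folds of 7.06, 11.4 and 17.8 in mta control and 5.49, 5.28 and 6.95 in WT control. CWLP mRNA stood at 135, 127 and 178 CPM in mta drought, 125, 159 and 124 in WT drought, 5513, 2078 and 2812 in mta control, and 1999, 1265 and 2418 in WT control. It fell by 4.56 ± 0.28 in mta and by 3.80 ± 0.28 in WT (edgeR's quasi-likelihood test, adjusted p = 4.7e-12 and 4.9e-11). Opposite AT5G24580, of the heavy-metal-associated family, the region (chr5:8410596-8410696, plus strand) was held by the 6 control libraries, and the gene fell by 2.34 ± 0.30 in mta and by 3.04 ± 0.27 in WT. AT5G16030 had its antisense region (chr5:5240331-5240470, minus strand) in 5 control libraries and fell by 3.55 ± 0.12 in mta and by 4.20 ± 0.14 in WT. That region also lay on the noncoding RNA AT5G02515 and 205 bp past the end of AT5G16040.

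Antisense regions held by at least 5 mta libraries and at most 1 WT library numbered 8. Of the 8 genes opposite them 5 were higher and 0 lower in mta than in WT in drought (median log2 fold change 0.67). In control 2 were higher and 0 lower (median 0.14). Over all genes tested 26.6% were higher and 26.1% lower in drought, and 8.5% and 9.28% in control. Of the 8 regions with the reverse pattern 4 genes were tested, of which 1 was higher and 2 lower in mta in drought and 0 passed in control (0 higher and 1 lower at an unadjusted p under 0.05, 0 with DESeq2). Opposite AT3G47480, which encodes a calcium-binding EF-hand protein, a region (chr3:17496495-17496686, plus strand) was held by 2 mta drought and 3 mta control libraries and no WT library. AT3G47480 mRNA stood at 76.1, 71.1 and 71.7 CPM in mta drought, 2.05, 2.75 and 1.8 in WT drought, 19.7, 25.2 and 23.8 in mta control, and 13.7, 15.2 and 14.7 in WT control. It was higher in mta by 5.05 ± 0.18 in drought and by 0.65 ± 0.14 in control on the log2 scale (edgeR's quasi-likelihood test, adjusted p = 6.7e-16 and 0.00227). AT3G28510, an AAA-type ATPase gene with a region in 5 mta libraries (chr3:10687062-10687141, minus strand), stood at 9.1, 11.5 and 10.3 CPM in mta drought against 0.228, 0.275 and 0.225 in WT drought. In control it stood at 19.9, 18.2 and 18.2 CPM in mta against 6.15, 7.29 and 7 in WT.

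Other regions held mostly by a single genotype did not go with a difference in both regimes. AT2G36950, of the heavy-metal-associated family, had an antisense region in 6 mta libraries and 1 WT library (chr2:15516360-15516460, minus strand). Its mRNA was 56.4, 70.3 and 55.8 CPM in mta drought and 32.8, 38.4 and 28.2 in WT drought, while in control the 28.8, 28.4 and 23.6 CPM of mta overlapped the 29.6, 38.3 and 20.3 CPM of WT. Opposite MBD10, a methyl-CpG-binding domain protein gene, a region (chr1:5276561-5276652, plus strand) was held by 5 WT libraries and 0 mta libraries. MBD10 stood at 81.9, 92.4 and 80.3 CPM in mta drought, 188, 205 and 211 in WT drought, 93.8, 90.4 and 74.5 in mta control, and 88.8, 98.8 and 79.8 in WT control. Only the WT drought libraries were high. The WT control libraries, between 79.8 and 98.8 CPM, overlapped the 6 mta libraries, between 74.5 and 93.8 CPM, while 2 of the 3 WT control m6A libraries held the region. At the regions opposite MBD10, AT2G36950, AT5G16030, AT5G53880 and AT1G67870 a sense-strand region was held by 12 libraries. It was held by 4 to 8 libraries for GRP-3, AT5G35660, CWLP, AT5G24580, AT3G47480 and AT3G28510. IRX9-L, AT3G17520 and SDP1-LIKE had no sense-strand region there.

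**Figure D5:**
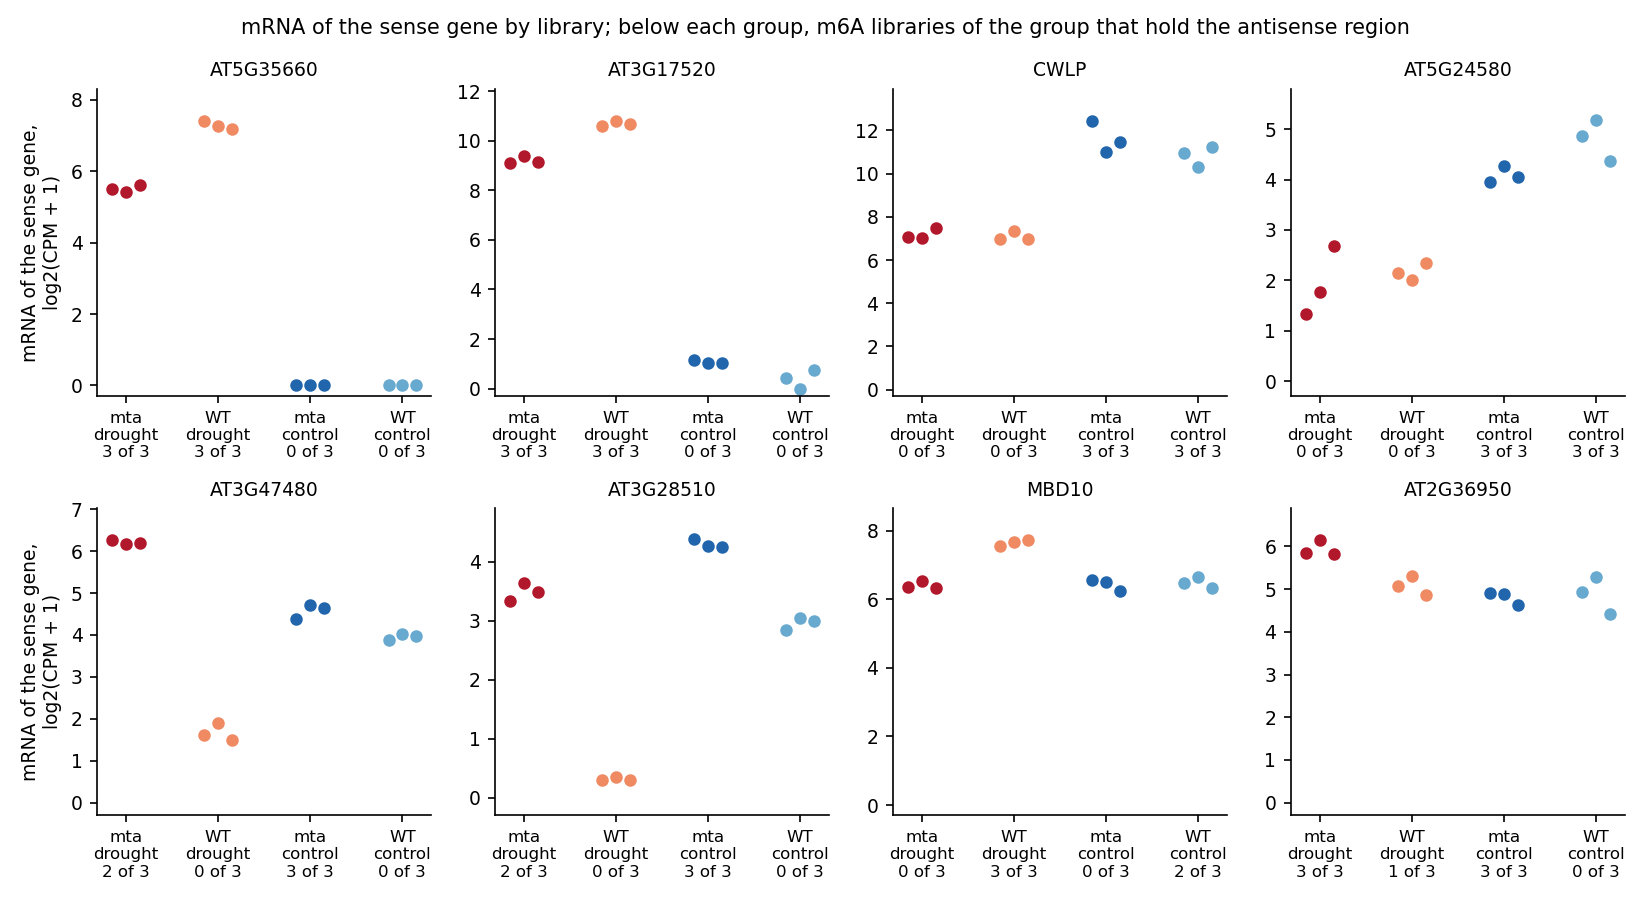
mRNA of 8 genes with a region on the opposite strand, as log2(CPM + 1) (vertical axis) for the 3 mRNA libraries of each group, and below each group the number of its 3 m6A libraries that hold the antisense region. AT5G35660 and AT3G17520 are high where the region is held, and MBD10 is high in WT drought only although 2 WT control libraries hold the region too.

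The regions on loci absent from the count tables were mostly on pseudogenes. Of the 191, 126 lay on loci that RefSeq lists as pseudogenes, 51 on transcribed pseudogenes and 14 on misc_RNA loci, 120 loci in all, with 6 regions on AT4G09595. The strand of these loci was not given in the table used, so a region there may be antisense to the locus. These loci were not counted by the authors, and no mRNA level is set beside their regions.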

How the data were processed

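The m6A peaks are MACS2 narrowPeak lists per library and strand, per the file headers and the submitters' processing notes, which also name STAR, cutadapt, Trim Galore, FastQC, SAMtools and bedtools and the build TAIR10, without roles. Each deposited peak has a fold enrichment (a ratio) at its summit, −log10 p and −log10 q values and a score, made by the authors. The smallest deposited −log10 q was 2, and the library used as background in peak calling is not given in the sources used here. The mRNA values are raw counts per whole gene span and per noncoding RNA, made with featureCounts 2.0.1 with strand taken into account, per the file headers, so overlapping genes of the same strand and near-identical copies stay uncertain.

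Peaks were merged and classed in Python 3.11.15 (pandas 2.3.3). Gene names and biotypes came from RefSeq (TAIR10.1), which holds 27445 of the 27655 genes and 5103 of the 5178 noncoding RNAs. Shares per library were compared by two-sided exact permutation tests within strata, with Benjamini-Hochberg adjustment over 6 shares, or 8 with the pair added later. Counts were tested in R 4.3.3 with edgeR 4.0.16 (filterByExpr with minimum count 10 and minimum total 15, TMM scaling, quasi-likelihood test, 1 mean per group), with DESeq2 1.42.0 as an alternative. For the noncoding RNAs, library size and scaling factor were those of the gene table. The Benjamini-Hochberg adjustment ran over every feature tested, with a threshold of 0.05. Levels in CPM use gene table totals scaled by TMM, log2 fold changes are given ± SE with 3 libraries per group, and other errors are SD. The procedure was tested on simulated data.

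Regions, lists and tests were chosen with earlier results of these data known. Regions named are the 10 held by the most libraries, with ties ordered by fold, and up to 3 each that at least 5 of 6 libraries of a genotype or regime held and at most 1 of the other 6. Genes named are, per comparison, the 5 with the largest rise and the 5 with the largest fall past the threshold among genes ahead of a region with a mean log2 CPM of at least 2, the 8 most counted noncoding RNAs, and up to 3 genes of the 3′ end list. Some were left out for length. Sequence motifs were not searched. Polysomal and uncapped RNA libraries were not used.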

Additional observations from a re-analysis of the deposited data

Results flagged for a closer look

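Several genes beside regions responded to drought differently in mta and WT by edgeR's quasi-likelihood test of the interaction (drought effect in mta minus that in WT, log2 scale, adjusted over all genes tested). Among genes ahead of a region the difference was positive for AT5G08760 at 4.42, AT1G02360 at 4.10, AT4G00955 at 2.99, AT1G78260 at 1.87 and AT3G28950 at 0.88. It was negative for HAC4 at -1.85, RARE1, an RNA editing factor of the chloroplast, at -1.52, AT3G47890 at -1.27, Hsp70-15 at -1.27 and UPL1 at -1.11. Among genes opposite a named region it was 4.40 for AT3G47480, 1.76 for AT5G53880, 1.10 for AT2G36950, 0.66 for AT5G16030 and 0.50 for GRP-3, and -1.18 for MBD10, -0.58 for AT1G67870 and -0.55 for IRX9-L. Among noncoding RNAs that hold a region it was 0.86 for AT3G12965, -0.82 for AT1G01448 and -1.10 for AT1G05562. The value of AT3G12965 was 0.60 without WT control 2, 0.81 without WT drought 3 and 0.79 without mta control 3, and that of AT1G01448 lay between -0.83 and -0.61 without WT control 1 or 2, WT drought 2, mta control 1 or mta drought 1, in no case past the threshold. AT3G28950 did not pass without WT control 2 (0.71). With the span trend removed AT3G12965 (0.45), AT3G28950 (0.55), GRP-3 (0.17) and UPL1 (-0.12) did not pass, and with DESeq2 AT3G12965, AT1G01448, AT5G16030 and IRX9-L did not.

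The share of peaks outside gene spans moved in opposite directions. It was lower in every mta library than in every WT library in drought, with a difference of means of -0.84 percentage points, and higher in every mta library than in every WT library in control, with a difference of 1.10. The difference between the regimes was not tested.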

How the results depend on the processing

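Of 476 recomputed counts and library tests under the alternatives, 417 kept their direction and their side of the threshold or stayed within 1.5 times the count, and of 2496 recomputed fold changes of named genes 2399 did. With peaks of a −log10 q of at least 5 only, the mta against WT difference was -3.44 points for the share past a gene end and -4.26 for the antisense share, neither past the threshold, and the drought difference past a gene end turned to -0.15. With the summit deciding what lies outside, the genotype difference of the outside share was -0.0092, that of the antisense share -4.13 without passing, and the log2 fold outside against inside 0.061, past the threshold. The mRNA libraries of the same number did not deviate together (correlations of -0.0874 to 0.156, with 4 of 12 libraries closest to their own number). This was not checked for the m6A libraries, so a batch shared by m6A libraries of the same number stays possible. With m6A libraries of the same number paired as a replicate block, sign flips of 6 pairs can give no p below 0.03125. So paired, the differences of -3.87 (past a gene end, genotype), -4.60 (antisense, genotype), 6.92 (antisense, drought) and -5.84 (noncoding, genotype) did not pass. A replicate block in the mRNA fit left 0 genes of the 3′ end list called between genotypes in control, as did DESeq2.

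Among genes within 200 bp of a region the calls were 24 (12 risen, 12 fallen) and 26 for drought in mta and WT, 14 and 4 for mta against WT in drought and control, and 11 for the difference of the drought effects, by construction over fewer genes. Noncoding RNAs called in mta against WT numbered 5 in control without a filter on low counts and 13 in drought with DESeq2, and for the difference 12 with the span trend removed and 8 with DESeq2. The 3′ end list had 4 calls for that difference with the span trend removed, and GRP-3 in mta against WT in drought turned to -0.048, against 0.31. The causes were not tested.

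Leaving out each library in turn gave ranges. The number of regions stayed between 521 and 565. The genotype difference of the outside share ran from -0.0376 (without WT control 3) to 0.263. That past a gene end ran from -4.55 to -3.06, the antisense one from -5.58 to -3.44 and the noncoding one from -6.54 to -5.26. The drought differences ran from -0.251 (without mta drought 1, and -0.134 without WT control 2) to 1.24 past a gene end, from 5.93 to 8.08 for antisense and from 1.11 to 2.39 for noncoding peaks, where the highest passed. Calls of mta against WT in control ran from 5 to 11 among genes ahead, 1 to 5 among noncoding RNAs and 0 to 1 in the 3′ end list. Noncoding calls ran from 16 to 30 for mta against WT in drought and from 10 to 20 for the difference. Depth of the m6A libraries is unknown, so an absent peak may be a region below the calling limit.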

Other observations

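Regions on noncoding RNAs mostly followed the RNA over drought. In mta, 8 of these regions were held by at least 2 control libraries and by no drought library, and of the 7 RNAs tested 0 had risen and 5 had fallen in drought. For the 3 regions held in mta drought and not in mta control, 3 RNAs had risen and 0 fallen. For the 4 held in WT control and not in WT drought, 2 RNAs were tested, of which 0 had risen and 1 had fallen. Over all noncoding RNAs tested, 34.1% rose and 14.3% fell in mta, and 29.2% and 12.8% in WT. In WT, 27 were held in drought and not in control, and of the 23 RNAs tested 14 had risen and 0 had fallen (14 and 0 at an unadjusted p under 0.05, 13 and 0 with DESeq2, median log2 fold change 0.75), where 35 of all 86 tested RNAs with a region had risen and 9 had fallen. Past gene ends, 28 regions were held in WT drought and not in WT control, and 12 of the 25 genes ahead that were tested had risen and 3 had fallen, against 47.8% risen and 20.3% fallen of all 69 genes ahead (32.6% and 35.3% of all genes).

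Single noncoding RNAs departed from this. AT1G29357 rose by 1.19 ± 0.19 in mta and by 0.68 ± 0.20 in WT in drought (edgeR's quasi-likelihood test, adjusted p = 1.4e-05 and 0.00585), while its region (chr1:10274138-10274301, minus strand) was held by the 3 WT drought libraries and by 0 mta libraries. AT1G05562, opposite the glucosyltransferase gene UGT75B1, fell by 0.51 ± 0.17 in mta and rose by 0.60 ± 0.17 in WT (adjusted p = 0.012 and 0.00415), and its region was held by 2 mta drought and 3 WT drought libraries. The adjusted p of its fall in mta was 0.0722 without mta control 1 and 0.0525 without mta drought 3, and that of the rise of AT1G29357 in WT was 0.0502 without WT control 1.

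Between the genotypes in drought, antisense regions with a sense-strand partner went with the gene. Of 13 held in mta drought and not in WT drought, the gene was higher in mta for 7 and lower for 3 (median log2 fold change 0.48). Of 24 held in WT drought and not in mta drought, it was higher in mta for 2 and lower for 16 (median -0.70). In-gene regions went the same way. For those in mta drought and not WT drought 186 were higher and 100 lower of 383 tested. For those in WT drought and not mta drought 385 were higher and 759 lower of 2072 tested. Over all genes tested 26.6% were higher and 26.1% lower in mta. Of the 67 regions without a partner held in WT drought and not in mta drought, 40 genes could be tested, of which 11 were higher and 8 lower in mta.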
